A study of Homo sapiens with 12 samples.

Results

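A set of 10 genes of the intestinal brush border was followed across 4 stable lines of HCT116, a poorly differentiated human colorectal cancer cell line, by RNA-seq of 3 libraries per line. The set holds VIL1, PLS1, ESPN, EPS8L3, CDHR2, CDHR5, USH1C, MYO7B, MYO1A and EZR, 10 of the 28395 genes in the count table. They were selected by symbol, with their levels across the 4 lines already known, so those levels and the differences between them are given as a description, with no test. HCT116-EV cells carried the empty pcDNA vector under geneticin selection, and HCT116-EHF cells were geneticin-resistant clones carrying a pcDNA3.1 plasmid for EHF, an epithelial ETS transcription factor. HCT116-CDX1 cells carried CDX1, an intestinal caudal homeobox factor, on an MSCV retrovirus with a GFP marker. They were sorted for GFP and had no plasmid and no geneticin selection, so the vector line is not their matched control. HCT116-EHF+CDX1 cells were HCT116-CDX1 cells transfected with the EHF plasmid and grown out as geneticin-resistant clones. Each line is 1 stable line, and the labels do not say whether its libraries came from separate cultures, although the study calls RNA-seq replicates biological. The tests therefore measure only the spread between libraries, which may be technical. The lines are called vector, EHF, CDX1 and double below.

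The brush border is the carpet of microvilli on the apical face of an enterocyte. Each microvillus is a bundle of actin filaments held together by villin, fimbrin and espin, tied to the membrane by class I myosins and ezrin, and joined to its neighbours at the tip by a complex of protocadherins, harmonin and a class VII myosin. The packing of these protrusions is a hallmark of terminal differentiation in the gut, and VIL1 is used in pathology as a marker of intestinal origin.

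RefSeq promoter windows on GRCh38.p14, from 250 bases before to 50 bases after the annotated start, were found for 7 of the 10 genes, and not for VIL1, ESPN or CDHR5. The windows below are shown because, of those 7 genes, theirs are the 3 with the highest ratios of double-line to vector mean CPM, and capitals mark the letters GGAAG of an ETS core and TTTAT of a CDX site, on either strand, so that CTTCC and ATAAA are the same letters read on the other strand. EPS8L3 lies on the minus strand at chr1:109763874-109764173, MYO7B on the plus strand at chr2:127535433-127535732 and MYO1A on the minus strand at chr12:57051149-57051448, each printed 5′ to 3′ along its gene.
EPS8L3: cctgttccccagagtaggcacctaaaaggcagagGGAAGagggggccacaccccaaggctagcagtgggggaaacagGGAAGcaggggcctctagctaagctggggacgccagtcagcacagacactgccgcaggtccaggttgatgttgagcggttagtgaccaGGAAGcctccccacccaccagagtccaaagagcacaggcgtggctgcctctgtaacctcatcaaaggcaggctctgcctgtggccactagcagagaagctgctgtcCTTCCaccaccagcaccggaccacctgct
MYO7B: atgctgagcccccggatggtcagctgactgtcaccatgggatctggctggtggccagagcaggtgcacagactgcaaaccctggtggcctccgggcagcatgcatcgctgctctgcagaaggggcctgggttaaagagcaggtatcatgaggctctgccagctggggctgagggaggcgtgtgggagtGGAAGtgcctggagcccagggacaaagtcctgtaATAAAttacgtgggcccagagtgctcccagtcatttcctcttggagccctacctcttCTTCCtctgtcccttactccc
MYO1A: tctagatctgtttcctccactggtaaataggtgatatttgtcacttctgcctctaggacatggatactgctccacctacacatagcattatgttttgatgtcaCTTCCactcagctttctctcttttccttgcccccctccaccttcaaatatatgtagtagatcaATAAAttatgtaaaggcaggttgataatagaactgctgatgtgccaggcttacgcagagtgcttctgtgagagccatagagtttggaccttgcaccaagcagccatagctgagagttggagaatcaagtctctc
The EPS8L3 window held GGAAG 4 times, 1 of them within the longer AGGAAG, and had no TTTAT. The MYO7B window held TTTAT once, from 28 to 24 bases before the start, and GGAAG 2 times, 1 of them within AGGAAG. The MYO1A window held 1 TTTAT, from 84 to 80 bases before the start, and 1 GGAAG. The window of USH1C, not printed, held GGAAG 2 times, 1 of them within AGGAAG, and no TTTAT. Among all 35116 windows of this length, 71.9% held GGAAG and 34.9% held TTTAT, while AGGAAG was in 33.6% and TTTATG in 10.6%. TTTATG contains TTTAT, and TATAAA, found in 11.5% of windows, overlaps TTTAT on the opposite strand. Neither TTTATG nor TATAAA nor CAAAGTCCA, an HNF4 site held by 0.384% of all windows, was found in the 7 windows. These matches describe letters in a window and say nothing of the factors.

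Total counts ranged from 13523007 to 74186741 per library, and 15853 genes that reached a CPM of 0.5 in 3 or more libraries were tested. Levels are CPM, counts scaled to library size with TMM factors, and 3 counts, taken as the detection limit, were worth between 0.0375 and 0.207 CPM. TMM factors lay between 0.799 and 0.845 in the CDX1 line and between 0.973 and 1.09 in the other lines. EHF was at 299 CPM in the vector line and 12.3 in the CDX1 line, which carry no EHF plasmid, and at 19312 in the EHF line and 18708 in the double line. CDX1 was at 525 CPM in the CDX1 line and 5419 CPM in the double line. The vector line thus had more EHF than the CDX1 line. Differences between those lines, and the interaction below, also carry that difference in EHF level. The double line also had more CDX1 than the line with CDX1 alone. The addition of EHF, the dose of CDX1 and the choice of clones therefore cannot be told apart. Vector replicate 3 stood apart from replicates 1 and 2, where the chi-square of their counts, divided by its degrees of freedom, was 297 and 270 against 4.11 between the other two. The values it moved most are also given without it. The summed level of 5 epithelial markers was between 4314 and 5440 CPM in the vector line, 2361 and 2859 in the CDX1 line and 4501 and 4741 in the double line. The summed level of 5 colonic markers was between 25.4 and 39.2 CPM in the vector line and between 151 and 159 in the double line. Of 5 fibroblast markers COL1A1 made up nearly all of the summed level and was highest in the CDX1 line, at 186 ± 29.2 CPM against 46.9 ± 23.1 in the vector line, while COL1A2, DCN and LUM were at 0 in the vector line and at means of at most 0.0443 CPM elsewhere. The summed level of 4 immune markers was between 17.8 and 19.4 CPM in the double line, with LYZ at 18.5, and at most 0.606 CPM elsewhere. The part of these markers in the results was not tested. These are bulk samples, in which more cells with a transcript and more transcript per cell cannot be told apart.

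**Figure D1:**
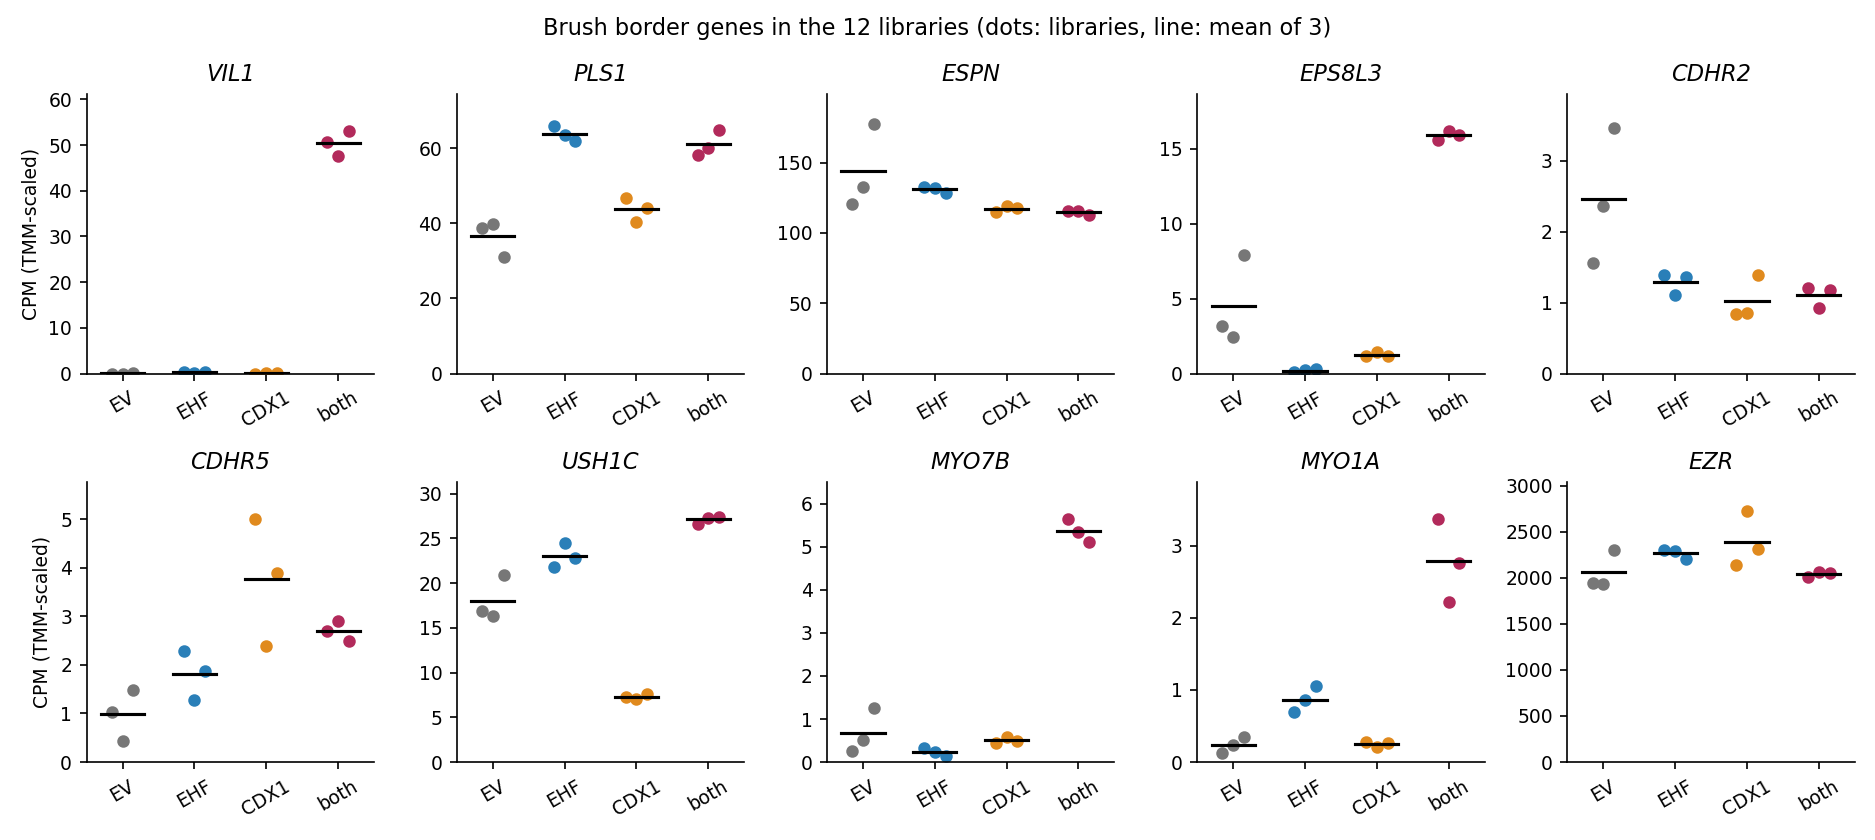
Level of each of the 10 genes in the 12 libraries, as TMM-scaled CPM on a linear axis that starts at 0. Dots are libraries, in replicate order, and horizontal lines are means of 3 libraries. VIL1, EPS8L3, USH1C, MYO7B and MYO1A are highest in all 3 libraries of the double line, and the grey dots of vector replicate 3 lie above those of replicates 1 and 2 in every panel but that of PLS1.

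VIL1 encodes villin, the calcium-regulated protein that bundles, caps and severs actin (Entrez 7429, chromosome 2, 218419123 to 218453295 on GRCh38). Its counts were 0, 0 and 6 reads in vector replicates 1, 2 and 3, which are 0, 0 and 0.110 CPM. In the EHF line they were 7, 5 and 21 reads, at 0.372, 0.105 and 0.262 CPM. In the CDX1 line they were 0, 5 and 5 reads, at 0, 0.126 and 0.129 CPM. Double-line libraries held 2906, 2510 and 768 reads, at 50.8, 47.6 and 53.1 CPM. All 3 libraries of the double line thus lay far above all other libraries, while the other 3 lines overlapped one another near the detection limit. The mean was 50.5 ± 2.73 CPM (SD, n = 3) with both factors and 0.0368 ± 0.0637 CPM in the vector line. As a ratio of summed reads over library size this was 818-fold, with an exact conditional 95% interval from 376 to 2230 that covers counting error only. The 6 vector reads were all in replicate 3. Without that library the double line was at least 372-fold above the 3-count limit of vector replicates 1 and 2. Against the EHF line the ratio of summed reads was 221 (157 to 321), and against the CDX1 line 617 (335 to 1287). The EHF and CDX1 lines did not differ beyond their spread, at 0.247 ± 0.134 and 0.0850 ± 0.0736 CPM. The exons of VIL1 overlap those of USP37, on the opposite strand, over 3045 of 6891 bases in the GENCODE models, and the strand setting of the counting is not given in the sources used here. USP37 was at 33.8 ± 2.74 CPM in the vector line and 38.9 ± 1.19 CPM in the double line (SD, n = 3 each).

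PLS1, encoding the intestinal fimbrin (plastin 1) that packs actin filaments in parallel (Entrez 5357, chromosome 3, 142596393 to 142713664), was at 38.9, 39.8 and 31.1 CPM in vector replicates 1, 2 and 3. It was at 66.1, 63.5 and 61.9 CPM in the EHF line, 46.6, 40.5 and 44.2 CPM in the CDX1 line and 58.2, 60.2 and 64.8 CPM in double-line libraries. The 2 lines with introduced EHF overlapped each other and lay above both other lines. CDX1 libraries lay just above those of the vector line, at 43.8 ± 3.12 and 36.6 ± 4.78 CPM. This order depended on the scaling. In the deposited log2 RPKM, made with quantile normalization, the CDX1 line, at 3.18, 3.01 and 3.13, overlapped the vector line, at 3.02, 3.06 and 2.72. On the log2 scale PLS1 was higher by 0.81 (SE 0.11) with EHF and by 0.74 (SE 0.11) with both factors than in the vector line. Between the double and EHF lines the difference was -0.07 (SE 0.10), within the spread of the libraries.

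ESPN, encoding the bundler espin (Entrez 83715, chromosome 1, 6424776 to 6461370), was at 121, 133 and 178 CPM in vector replicates 1, 2 and 3. EHF libraries were between 128 and 133 CPM, the CDX1 line between 115 and 119 and the double line between 113 and 116. The single high library was vector replicate 3. The log2 difference between the double line and the vector line was -0.33 (SE 0.12), and -0.14 without that replicate. With TMM factors espin was thus near one level in all 4 lines. In the deposited log2 RPKM, made with quantile normalization, the CDX1 line was lower, at 3.62, 3.73 and 3.72. The vector line was at 4.01, 4.14 and 4.56 on that scale. The exons of ESPN overlap TNFRSF25 on the opposite strand over 383 bases, and near-identical espin pseudogenes could share its reads, so its level is uncertain.

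EPS8L3 is a member of the EPS8 family, whose founder caps and bundles actin at microvillus tips (Entrez 79574, chromosome 1, 109750080 to 109763923). Its level was 3.14, 2.41 and 7.92 CPM in vector replicates 1, 2 and 3, from 73, 51 and 431 reads. It was 0.106, 0.210 and 0.287 CPM in EHF libraries, from 2, 10 and 23 reads. It was 1.18, 1.42 and 1.16 CPM in CDX1 libraries. In double-line libraries it was 15.6, 16.2 and 15.9 CPM, from 893, 853 and 230 reads. The 4 lines did not overlap, in the order both factors, vector, CDX1 alone and EHF alone. Relative to the vector line the log2 difference was -4.32 (SE 0.46) with EHF, -1.89 (SE 0.37) with CDX1 and 1.78 (SE 0.35) with both factors. Each factor alone thus went with a lower level and both together with a higher one. Without vector replicate 3, whose level was 2.85 times the mean of the other two, these values were -3.55, -1.16 and 2.51. Against the EHF line the double line was 79.0-fold higher in mean CPM, and against the CDX1 line 12.7-fold higher.

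The intermicrovillar adhesion complex is represented by 4 genes, of which the 2 protocadherins form the links between neighbouring tips. CDHR2 (protocadherin 24, Entrez 54825, chromosome 5, 176542511 to 176595974) was at 1.55, 2.37 and 3.46 CPM in vector libraries and between 0.832 and 1.39 CPM in the 9 libraries of the other lines. It was highest in the vector line, whose libraries overlapped none of the others, and the remaining lines overlapped. With both factors the log2 difference from the vector line was -1.19 (SE 0.32), or -0.84 without vector replicate 3. Its exons overlap those of GPRIN1, on the opposite strand, over 173 bases. Its heterophilic partner CDHR5 (mucin-like protocadherin, Entrez 53841, chromosome 11, 616583 to 624955) was at 1.03, 0.426 and 1.49 CPM in vector libraries. It was at 2.29, 1.28 and 1.88 CPM in the EHF line, 5.02, 2.40 and 3.88 CPM in the CDX1 line and 2.71, 2.90 and 2.49 CPM in double-line libraries. CDHR5 was highest with CDX1 alone, where its libraries were most spread, and the 2 lines with CDX1 overlapped. The log2 difference from the vector line was 1.86 (SE 0.39) with CDX1 alone and 1.39 (SE 0.39) with both factors, and 2.34 and 1.88 without vector replicate 3. The 2 partners therefore differed from the vector line in opposite directions in the double line.

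USH1C encodes harmonin, the scaffold that links the protocadherins to the motor (Entrez 10083, chromosome 11, 17493900 to 17544416). It was at 16.9, 16.4 and 20.9 CPM in vector libraries, 21.8, 24.5 and 22.8 CPM in the EHF line, 7.25, 7.02 and 7.62 CPM in the CDX1 line and 26.6, 27.3 and 27.4 CPM in double-line libraries. The lines did not overlap and ran, from high to low, both factors, EHF, vector and CDX1. CDX1 alone went with a log2 difference of -1.31 (SE 0.11) from the vector line, and the double line was 3.72-fold above the CDX1 line.

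MYO7B encodes the class VII myosin of the microvillus tip (Entrez 4648, chromosome 2, 127535683 to 127637726). Its level was 0.258, 0.521 and 1.25 CPM in vector libraries, from 6, 11 and 68 reads. It was 0.319, 0.231 and 0.138 CPM in the EHF line and 0.438, 0.581 and 0.489 CPM in CDX1 libraries. In double-line libraries it was 5.64, 5.35 and 5.11 CPM, from 323, 282 and 74 reads. The double line lay above all other libraries, and the vector line overlapped each line with a single factor. Its mean of 5.37 ± 0.265 CPM (SD, n = 3) was 7.94-fold that of the vector line, 23.4-fold that of the EHF line and 10.7-fold that of the CDX1 line. Vector replicate 3 was at 3.21 times the mean of the other two, and without it the log2 difference between both factors and vector was 3.80 in place of 2.86. The difference between CDX1 alone and vector changed sign without that library, from -0.56 to 0.38.

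MYO1A encodes brush border myosin I, the bridge between the actin core and the lateral membrane (Entrez 4640, chromosome 12, 57028517 to 57051198). Its level was 0.129, 0.237 and 0.349 CPM in vector libraries, from 3, 5 and 19 reads, and 0.285, 0.202 and 0.257 CPM in CDX1 libraries. It was 0.692, 0.861 and 1.05 CPM in the EHF line and 3.37, 2.22 and 2.76 CPM in double-line libraries. The vector line and the CDX1 line overlapped at the bottom, the EHF line lay above them and the double line above all. Relative to the vector line, MYO1A was 3.64-fold higher with EHF and 11.7-fold higher with both factors. Without vector replicate 3 its log2 difference with both factors was 3.92 in place of 3.42, and that between CDX1 alone and vector turned from -0.05 to 0.46. Its annotated exons overlap those of TAC3, on the same strand, over 112 bases.

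EZR encodes ezrin, which couples the membrane to actin in microvilli and in many other cells (Entrez 7430, chromosome 6, 158765748 to 158819368). It was at 1946, 1934 and 2296 CPM in the vector line and 2302, 2291 and 2203 CPM in EHF libraries. It was at 2140, 2723 and 2313 CPM in the CDX1 line and 2009, 2057 and 2047 CPM in double-line libraries. Neighbouring lines in the order CDX1, EHF, vector and both factors overlapped, and the highest and lowest means, 2392 and 2038 CPM, differed by little. The small difference between CDX1 alone and vector depended on the scaling, at 0.22 with TMM factors and -0.70 with quantile normalization, on the log2 scale.

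**Figure D2:**
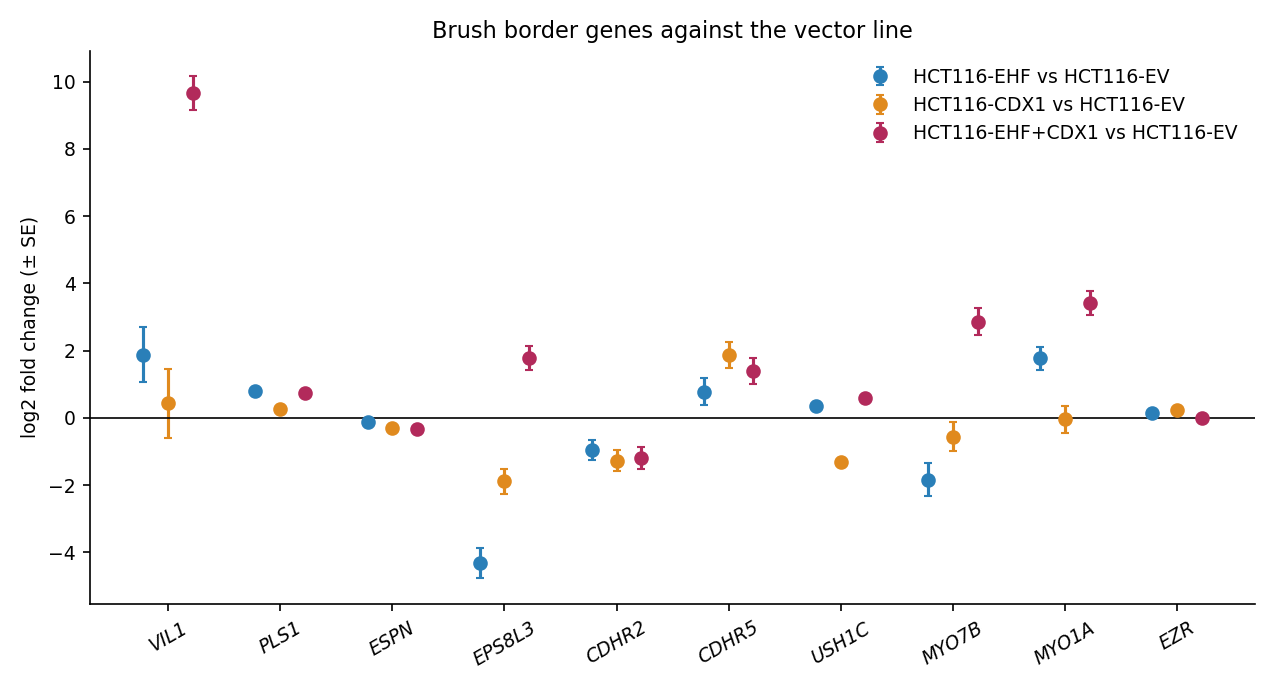
Log2 fold change of each gene in the EHF line, the CDX1 line and the double line against the vector line, with the standard error of the edgeR fit. The dark red points (double line) of VIL1, MYO1A, MYO7B and EPS8L3 lie at 9.66, 3.42, 2.86 and 1.78, while the EPS8L3 points of the lines with a single factor lie at -4.32 and -1.89.

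All 10 genes passed the filter on low counts, but VIL1 did so only through the 3 libraries of the double line, MYO1A through the lines with EHF, and MYO7B through the double line and vector libraries. VIL1 fell below the filter whenever 1 library of the double line was left out, since its remaining 2 libraries are fewer than the filter asks for.

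**Figure D3:**
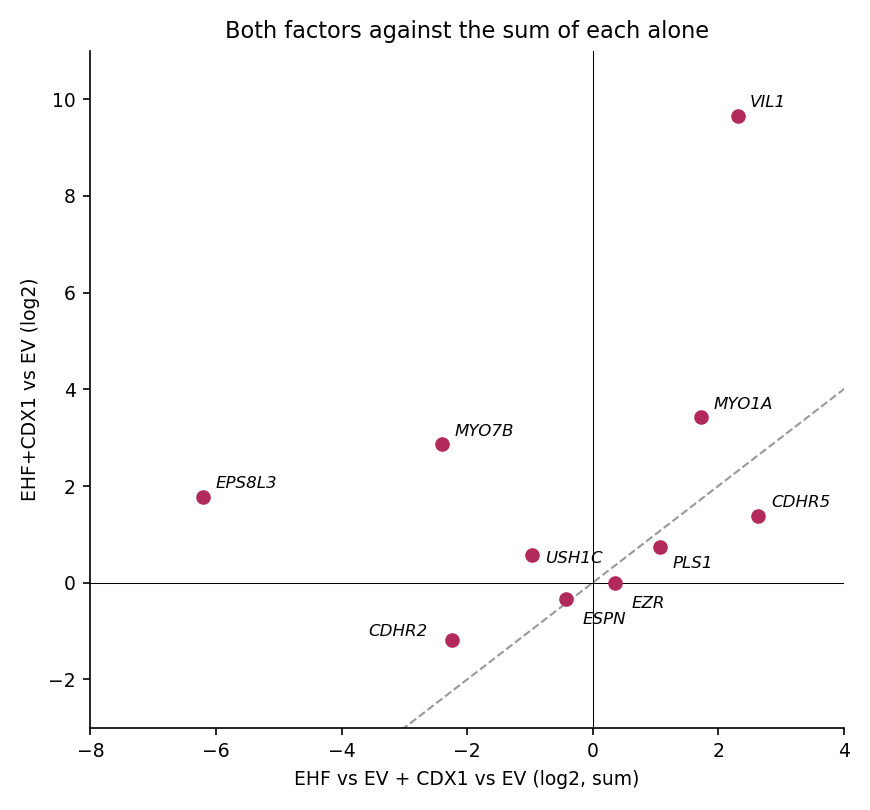
Log2 fold change of the double line over the vector line against the sum of the log2 fold changes of the EHF line and the CDX1 line over the vector line, for each gene. The dashed line marks equality. EPS8L3, at -6.20 on the horizontal and 1.78 on the vertical axis, VIL1 and MYO7B lie farthest above it, and CDHR5 lies below it.

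The interaction compares the double line with the sum of the separate log2 differences of the single-factor lines. It carries the differences in CDX1 dose and EHF level noted above. For EPS8L3 the separate differences summed to -6.20 and the double line was at 1.78, an interaction of 7.98 (SE 0.60). For VIL1 the sum was 2.31 and the observed value 9.66, an interaction of 7.35 (SE 1.54) that rests on few reads in 3 of the lines. For MYO7B the sum was -2.40 and the observed value 2.86, an interaction of 5.26 (SE 0.65). These 3 genes were thus the farthest from additivity. The interactions of MYO1A and USH1C were 1.69 (SE 0.50) and 1.54 (SE 0.15), and those of PLS1, ESPN and EZR lay between -0.37 and 0.10, that of EZR turning from -0.37 to 0.58 under quantile normalization. CDHR5 had a negative interaction, at -1.25 (SE 0.53), and CDHR2 a positive one, at 1.06 (SE 0.45). Without vector replicate 3 the interaction was 7.21 for EPS8L3, 4.38 for MYO7B and 1.17 for MYO1A. That of CDHR5 was then -1.71 and that of CDHR2 0.70. For VIL1 it was 3.04, a value that depends on the prior count since no vector read remained.

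**Figure D4:**
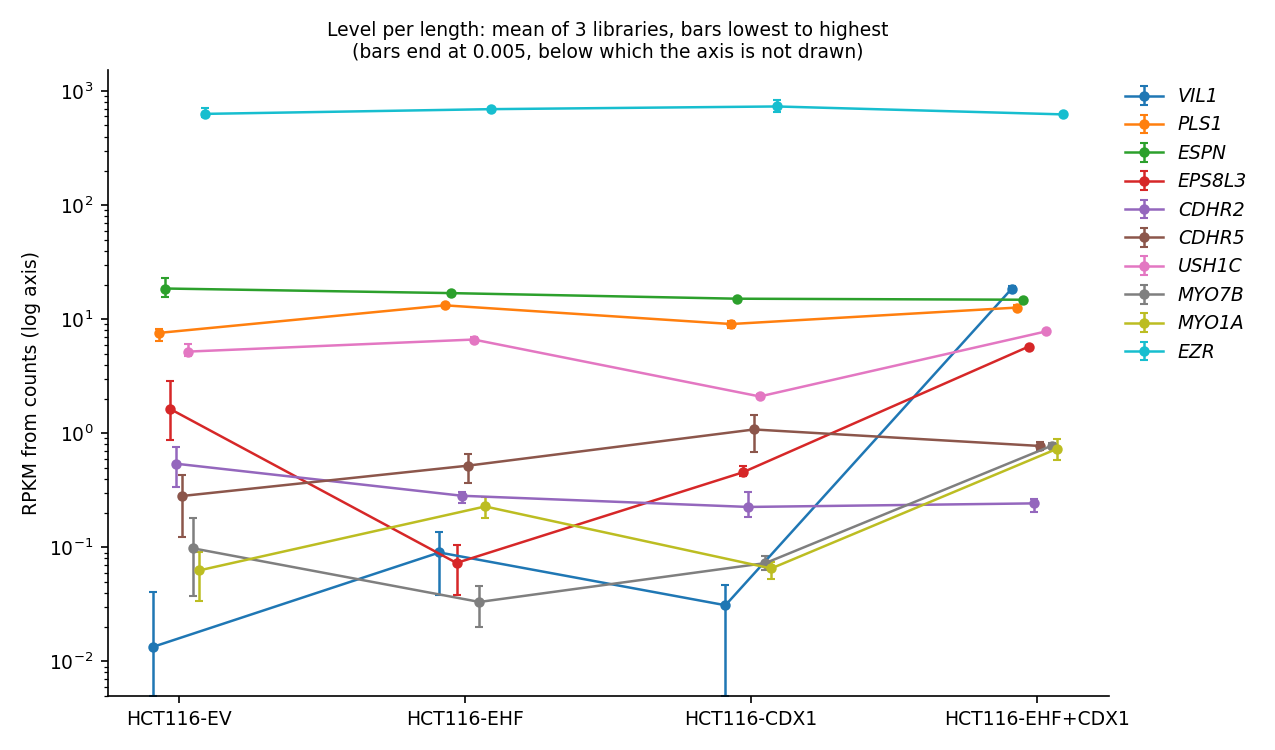
Level per length of each gene, as RPKM computed from the counts on a log axis, in the 4 lines. Points are means of 3 libraries, lines join the points of a gene, and bars run from the lowest to the highest library but stop at 0.005, the foot of the axis. VIL1 moves from the bottom of the set in the vector line to the second position in the double line, below EZR at the top.

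Per length of transcript, in RPKM, the set spanned several orders of magnitude. EZR was highest in each line, between 626 and 734 RPKM, followed in the vector line by ESPN at 18.6, PLS1 at 7.59 and USH1C at 5.20 RPKM. VIL1 was lowest there, at 0.0134 RPKM. In the double line VIL1 was second, at 18.4 ± 0.997 RPKM (SD, n = 3), above ESPN at 14.8 ± 0.196 and PLS1 at 12.7 ± 0.700 RPKM. The villin transcript was therefore at a level like those of the 2 other bundlers only in that line. EPS8L3 followed USH1C in the double line, at 5.76 against 7.82 RPKM. MYO7B, CDHR5 and MYO1A were at 0.777, 0.774 and 0.732 RPKM there, which did not differ beyond their spread. CDHR2 was lowest, at 0.243 RPKM. The genes of the adhesion complex were thus present at unequal levels, with the harmonin transcript above those of both protocadherins and the motor in all 4 lines. Leaving out EZR, the genes summed to 34.0, 38.1 and 28.3 RPKM in the vector, EHF and CDX1 lines, and to more in the double line, where VIL1 alone added 18.4 RPKM.

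Across the 12 libraries, which fall into the 4 lines and are described here without a test, the log2 CPM of VIL1 followed that of MYO1A (r = 0.910) and MYO7B (r = 0.874), and EPS8L3 followed MYO7B (r = 0.873). CDHR2 and CDHR5 were opposed, at r = -0.626. Of all tested genes, the 3 most like VIL1 were GUCY2C (r = 0.990), the intestinal receptor for guanylin, and the interferon-stimulated genes IFI44 (0.987) and ISG15 (0.986). GUCY2C was at 8.39 ± 1.21 CPM with both factors and had at most 1 read per library in the vector line and the CDX1 line. Without vector replicate 3 the 3 most like VIL1 were STK31, ISX and GUCY2C. Those most like EPS8L3 were COL17A1 (0.990), a hemidesmosome collagen, AMN (0.957), the partner of cubilin, and DNAJC5 (0.954). COL17A1 was also first by rank correlation (0.965) and without vector replicate 3 (0.989). Those most like MYO7B were ZNF253 (0.970), TMPRSS4 (0.965) and TRABD2A (0.964), and without vector replicate 3 RARRES1, TGFBI and CBR1. Those most like MYO1A were FARP1 (0.980), FOXA2 (0.976) and PLA2R1 (0.972), of which FARP1 and FOXA2 were also among the 3 nearest without that library. Those most like USH1C were RELL2, BCL2L2 and IL17RB, each at 0.990, and without it MYBL2, KIF3C and SPATA20.

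Another 98 genes of microvillus structure were followed by the same fit, of which 93 could be tested. By an edgeR test for a change beyond 1.5-fold, 11 rose and 4 fell in the double line compared to the vector line, with a median log2 fold change of 0.18 against -0.03 over all genes tested. The shares that rose and fell were 11.8% and 4.30%, beside 7.30% and 3.13% of all genes. The largest rise was that of ANKS4B, the ankyrin-repeat partner of harmonin in the adhesion complex. ANKS4B had 0, 0 and 1 reads in the vector line, 3, 7 and 9 in the EHF line, 25, 30 and 34 in the CDX1 line and 53, 76 and 12 reads in double-line libraries. It was at 1.07 CPM with both factors, at least 9.80-fold above the mean 3-count limit of the vector line. With CDX1 alone it was at 0.727 CPM, at least 6.68-fold above that limit. ANKS4B passed the filter only through the 2 lines with CDX1, where it is high and whose levels overlapped. It is therefore described without its p-values, although it is among the genes called. ANKS4B was 7.63-fold higher with both factors than with EHF alone (log2 3.01, SE 0.39).

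PDZK1IP1, encoding a small membrane protein that binds the scaffold PDZK1, had 33, 35 and 13 reads in double-line libraries, 2 reads in all of the vector libraries and none in the 6 libraries with a single factor. Its 0.713 CPM was at least 6.55-fold above the limit of 3 counts in the vector line, at least 9.78-fold above that of the CDX1 line and at least 8.22-fold above that of the EHF line. PDZK1IP1 passed the filter on low counts only through the double line, where it is high, so it is described without its p-values although it is among the genes called there. Every library with both factors lay above all others. CLIC5, a chloride intracellular channel family protein that associates with ezrin, was at 0.0431, 0.142 and 0.754 CPM in the vector line, at 8.19, 9.01 and 8.62 CPM in the EHF line and at 7.21, 6.32 and 6.84 CPM in double-line libraries. It rose by a log2 of 4.43 (SE 0.50, edgeR adjusted p = 0.000118) with EHF and 4.08 (SE 0.50, 0.000172) with both factors, or by 6.53 and 6.18 without vector replicate 3. In the CDX1 line it was between 0.632 and 1.29 CPM and was not called, with a log2 difference of 1.24 (edgeR adjusted p = 0.129). Without vector replicate 3 that difference was 3.34 (edgeR adjusted p = 8.18e-05).

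COBLL1, related to the actin nucleator cordon-bleu, rose in all 3 lines. It was between 0.852 and 1.82 CPM in the vector line, 8.30 and 8.96 in the EHF line, 9.27 and 11.9 in the CDX1 line and 11.9 and 14.7 CPM in double-line libraries, where the log2 fold change was 3.32 (SE 0.23, edgeR adjusted p = 1.69e-06). CDHR4, a further cadherin-related gene, rose with both factors by 3.28 (SE 0.64, edgeR adjusted p = 0.00607), from 1, 2 and 35 reads in vector libraries, and by 5.51 without the third of these. TNIK, a kinase of the cascade upstream of ezrin, was at 12.4, 10.4 and 9.28 CPM in the vector line and 123, 114 and 118 CPM in EHF libraries, a log2 fold change of 3.47 (SE 0.15, edgeR adjusted p = 3.31e-08).

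PODXL2, a relative of the ezrin-bound sialomucin podocalyxin, fell most with each factor alone. Its level was 31.2, 32.2 and 48.3 CPM in the vector line, 1.60, 1.13 and 1.68 in the EHF line and 2.34, 2.78 and 2.26 CPM in CDX1 libraries. It was 12.4, 12.3 and 15.1 CPM in double-line libraries. Like EPS8L3 it was lower with each factor alone, but with both factors it lay between those lines and the vector line. The log2 fold change was -4.67 (SE 0.22, edgeR adjusted p = 8.43e-08) with EHF, -3.92 (SE 0.21, 5.17e-08) with CDX1 and -1.50 (SE 0.19, 0.00111) with both. Against the EHF line it was higher with both factors by 3.17 (SE 0.22, edgeR adjusted p = 4.39e-06). USH1G, a scaffold of the corresponding complex in sensory hair cells, fell by 1.58 on the log2 scale with both factors (SE 0.19, edgeR adjusted p = 0.000791). MYH14, a nonmuscle myosin II heavy chain of the terminal web, fell by 1.25 (SE 0.21, edgeR adjusted p = 0.0113). This call was lost in limma voom (adjusted p = 0.114), with only the 2 lines compared in the edgeR fit (0.115) and without double replicate 2 (edgeR adjusted p = 0.0502).

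By function, 5 of 21 genes (23.8%) rose with both factors in the ezrin family with its kinases and scaffolds. Of adhesion complex partners and sensory-hair counterparts, 3 of 9 tested (33.3%) rose. In the actin bundling and villin family 2 of 18 (11.1%) rose, and 1 of 13 EPS8 and BAR-domain regulators (7.69%), beside 7.30% of all genes. The first 2 of these lists count PDZK1IP1 and ANKS4B, which passed the filter only through lines where they are high. In the first list NHERF4 also passed it only through the double line. NHERF4 was at 0.750 CPM there and at most 0.315 CPM in any library elsewhere. In the second list CDHR3 passed it only through the EHF and double lines, where it is high. The shares of these 2 lists depend on such genes. Among 21 motors 0 rose and 1 fell. The ezrin, adhesion complex and actin bundling lists also had 1 fall each, beside 3.13% of all genes. In the terminal web list, spectrins and crosslinkers, edgeR called 0 of 11 genes, with 0 also at an unadjusted p under 0.05, in limma voom and in DESeq2. In the EHF line, 11 of the 93 rose (11.8%) and 2 fell (2.15%), beside 5.68% and 2.65% of all genes. In the CDX1 line 30 rose and 17 fell, among them ESPNL, the espin-like protein, which rose from 0.302, 0.142 and 0.368 CPM to 4.82, 5.91 and 5.94 CPM (log2 4.24, SE 0.30, edgeR adjusted p = 3.52e-07). The 32.3% that rose and 18.3% that fell stand beside 21.3% and 23.3% of all tested genes.

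Between the double line and the CDX1 line, 16 of the 93 were higher (17.2%) and 19 lower (20.4%), near the 22.3% and 18.7% of all genes. The largest differences after PDZK1IP1 were those of CDHR3, a cadherin-related gene, at 3.76 (SE 0.43), and SCIN, the villin relative scinderin, at 3.43 (SE 0.60). CDHR3 was at 0.175, 0.0758 and 0.103 CPM with CDX1 alone and at 1.90, 1.99 and 0.898 CPM with both factors. SCIN rested on 5, 0 and 4 reads with CDX1 alone and 52, 46 and 8 with both, and reached the minimum CPM elsewhere in vector replicate 2 only. The filter on low counts asks for 3 libraries, so SCIN passed it only through the double line. CDHR3 passed it only through the EHF and double lines. Both genes were high there and are described without p-values, although they are among the genes called. Between the double line and the EHF line, 5 of the 93 were higher (5.38%) and edgeR called 0 lower, beside 2.49% and 0.189% of all genes, with 1 lower at an unadjusted p under 0.05 and 0 in limma voom and DESeq2. Leaving out double replicate 1, 2 or 3 left 3 of the 5. The interaction was above additivity for 14 (15.1%) and below for 25 of the 93 (26.9%), beside 20.2% and 18.0% of all genes.

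**Figure D5:**
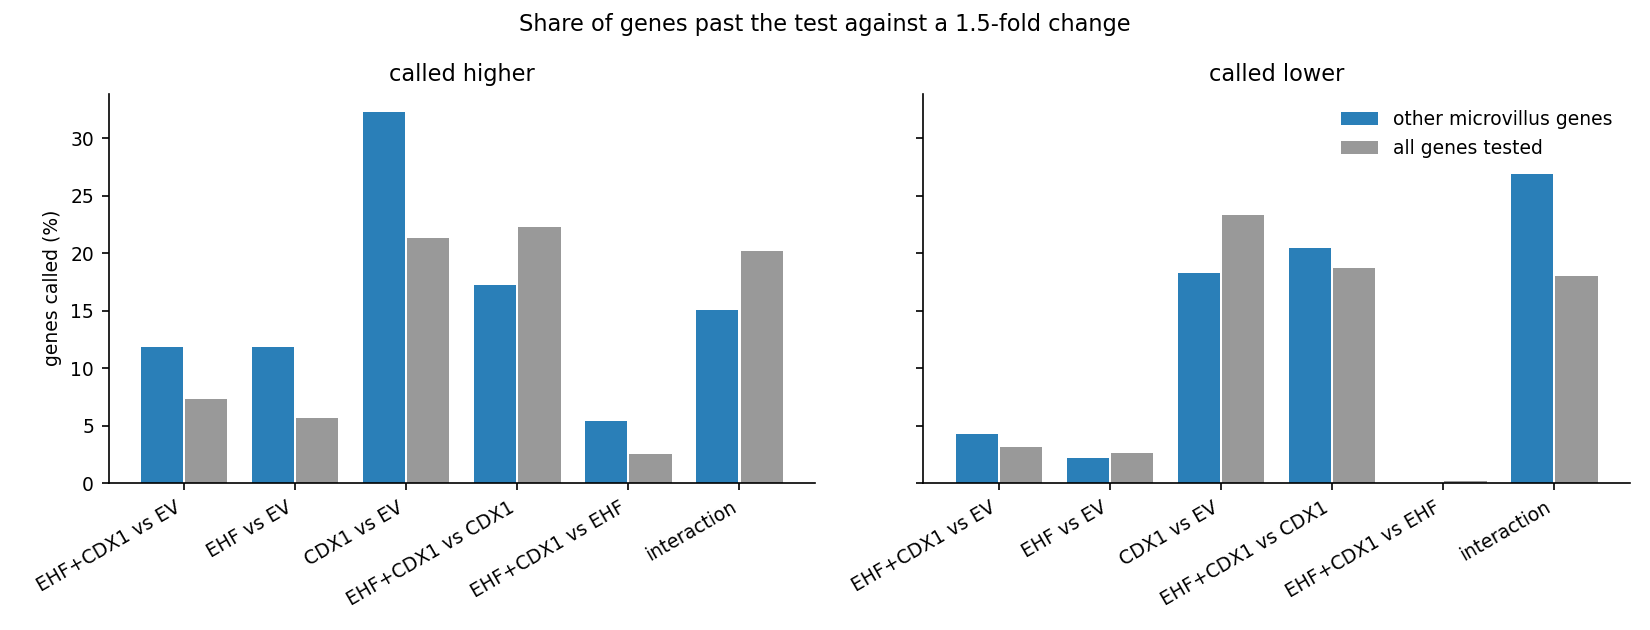
Percent of genes called higher (left) and lower (right) by edgeR for a change beyond 1.5-fold, for the 93 other microvillus genes tested and all 15853 genes tested, in each of 6 comparisons. Bars start at 0. With both factors against vector, 11.8% of the other microvillus genes and 7.30% of all genes were higher.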

How the data were processed

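Polyadenylated RNA of 4 HCT116 lines with 3 libraries each was sequenced as paired ends with a directional kit. Per the labels, the authors aligned reads with Subread 2.0.0 and counted uniquely mapped reads with featureCounts 2.0.0 on RefSeq exons of GRCh38 (hg38). The strand setting is not given in the sources used here. The deposited raw counts cover 28395 genes and were the values used. The deposited log2 RPKM values, made by the authors with limma voom and quantile normalization, were used in an alternative only.

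The tests ran in edgeR 4.0.16 under R 4.3.3. The filter on low counts (CPM of 0.5 or more in 3 or more libraries) left 15853 genes and removed 0.0585% of all counts. One quasi-likelihood fit with TMM factors and the line as the only term covered the 12 libraries. A gene was called where glmTreat gave a Benjamini-Hochberg adjusted p under 0.05 for a change beyond 1.5-fold, adjusting over every gene that passed the filter. Printed adjusted p-values come from glmTreat. Standard errors are the log2 fold change over the root of F. RPKM used exon lengths implied by the deposited values, which were whole numbers for 100% of genes. For a line in which no library exceeded 3 counts, a fold was taken against the CPM of 3 counts, averaged over that line. Intervals and limits cover counting error only. Groups came from the sample labels.

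The 10 genes, the lists of 98 other genes and the tests were chosen with earlier results of these data known. Of those lists the text names the 5 highest and 3 lowest called genes with both factors against vector, the 3 largest in each other comparison, and for genes described at length the 3 of most similar pattern (Pearson r of log2 CPM, prior count 2). Neighbours without vector replicate 3 were found the same way. The 10 genes themselves are given no calls. The alternatives were limma 3.58.1 (voom on the counts, and on the deposited log2 RPKM), DESeq2 1.42.0, RLE factors, no filter, a test against no change, only the groups compared, a replicate block, thinned counts, another prior count and each library left out. Methods were tested on simulated data first.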

Additional observations from a re-analysis of the deposited data

Results flagged for a closer look

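By the edgeR interaction test against a 1.5-fold change, 9 of the other microvillus genes named in the report were called. This test sets the EHF line against the vector line beside the double line against the CDX1 line. Over all genes tested, 20.2% were called above and 18.0% below additivity. The named genes were picked for large called changes, so the count describes only them. The dose of CDX1, the level of EHF and the choice of clones also differed between the lines and were not separated. PODXL2 had an interaction of 7.09 (SE 0.30, adjusted p = 2.67e-08), with a log2 difference of -4.67 between the EHF and vector lines and of 2.42 between the double and CDX1 lines. ESPNL went the opposite way, at -4.41 (SE 0.39, adjusted p = 5.77e-06), with 1.94 and -2.47 for these pairs of lines in the same order. SCIN had an interaction of 4.94 (SE 0.87). Since SCIN passed the filter on low counts only through the double line, its p-values are not given. USH1G had an interaction of 1.51 (SE 0.27, adjusted p = 0.00346), not called in limma voom (adjusted p = 0.063). The interactions of COBLL1 (-2.38, SE 0.29, adjusted p = 0.000122) and TNIK (-2.18, SE 0.19, adjusted p = 1.04e-05) were negative, and both genes were higher in every line that carried a factor than in the vector line. CDHR4 (-2.43, SE 0.83, adjusted p = 0.0469) was near the threshold. Its call was lost in several fits with a library left out, such as that without vector replicate 1 (adjusted p = 0.0792). Without vector replicate 3 its interaction was -4.63 (adjusted p = 0.000532). The interaction of ANKS4B was -2.80 (SE 0.89), and its call too was lost without vector replicate 1. Without vector replicate 3 it was -4.82, which depends on the prior count since no vector read remained. ANKS4B passed the filter on low counts only through the lines with CDX1, so its p-values are not given. PDZK1IP1 had a fitted interaction of 10.73 (SE 2.29) that depends on the prior count, since its counts were 0 in both lines with a single factor. It passed the filter on low counts only through the double line, so its p-values are not given. Its call was lost without vector replicate 3. Groups of 3 libraries are too small for a test of single outlying libraries.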

How the results depend on the processing

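The test against no change moved the number of other microvillus genes called to 43 from 15 (both factors against vector), 44 from 13 (EHF against vector), 60 from 35 (both against CDX1) and 10 from 5 (both against EHF). With only the groups compared the number was 31 in place of 47 for CDX1 against vector and 9 in place of 5 for both against EHF. Thinning to the smallest library left 3 of those 5. Leaving out 1 library gave ranges of 11 to 21, 9 to 17, 40 to 54 and 32 to 41 for these comparisons in the order both, EHF and CDX1 against vector and both against CDX1, of 3 to 6 for both against EHF and of 34 to 49 around the interaction's 39. In 115 of 125 recomputed counts the number stayed within 1.5 times the one reported. The share of all genes called under each alternative is not set beside these numbers. They describe only how far the counts depend on the processing. Same-numbered libraries of different lines correlated between -0.0653 and 0.0802 in their deviations, and differently numbered ones between -0.106 and 0.0897. No pairing by number was thus seen, although 3 libraries per line are too few to exclude it. With the replicate block the numbers were 15, 12, 48, 35, 4 and 38 in the same order. No called fold change of a named gene of the lists reversed under any alternative that could be fitted. VIL1 could not be fitted without a double-line library, since it then fell below the filter. Its log2 difference of both factors over vector ranged from 8.88 (prior count 2) to 13.97 (without vector replicate 3), and the latter depends on the prior count since no vector read remained. The depth sets a limit of between 0.0375 and 0.207 CPM, near which VIL1, MYO7B and MYO1A lie in several lines.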
